A study of Homo sapiens with 63 samples.

Results

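The 33 genes described here make cholesterol and fatty acids, or set how much of each a cell makes through the SREBP transcription factors. They were taken by gene symbol from a table of 13962 genes, and all 33 were found. By role, 8 belong to the mevalonate arm, 11 to the steps that lead to cholesterol through squalene, 6 to sterol sensing and carriage, and 8 to fatty acid synthesis.

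The cells were COLO320DM, an established human colorectal adenocarcinoma line kept in RPMI medium with 4% fetal bovine serum. They received Helicon 4, a helicon peptide that the study's title sets against β-catenin and TCF, the pair of proteins that switches genes on at the end of Wnt signalling, or Helicon 4-neg, a compound the labels name without describing it, or DMSO, the usual solvent. Polyadenylated RNA was sequenced from 63 libraries in 21 groups of 3. The groups were Helicon 4 at 1, 3 and 10 µM, Helicon 4-neg at 1, 3 and 10 µM and DMSO, each taken at 6, 24 and 48 h, and all of them shared the line and the serum. The labels number biological replicates without saying whether these were separate cultures, and every p-value therefore speaks of variation among the sequenced libraries, which may be technical. In bulk RNA, fewer cells of a kind and less RNA per cell cannot be told apart.

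Cells build cholesterol from acetyl-CoA through mevalonate, isoprenoids and squalene, in a chain of enzymes of the cytosol and endoplasmic reticulum. When sterols in the endoplasmic reticulum run low, SCAP escorts the precursors of SREBP1 and SREBP2 to the Golgi, where they are cut, and the released factors enter the nucleus and switch on the genes of sterol and fatty acid synthesis. INSIG1 and INSIG2 hold SCAP back when sterols are plentiful, and INSIG1 is itself a target gene of the SREBPs.

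SREBPs bind short sterol-responsive elements in promoters, usually next to sites of the general factors NF-Y and Sp1. The 250 bases before the RefSeq start site (GRCh38.p14) were available for 29 of the 33 genes, and 6 of these promoters are printed because they belong to members on which the results turn: a sensor that followed the enzymes, its paralog that did not, one of the SREBP genes, and 3 enzymes. Bases in capitals mark the NF-Y box CCAAT, the sterol-responsive core CACNCCAC and the E-box CACGTG, each searched on both strands, so that CCAAT on the other strand reads ATTGG. The INSIG2 promoter holds none of these motifs, and in SREBF2 the core lies within a match to the full classical sterol-responsive element. Where RefSeq lists several start sites for a gene, the first listed is shown.
INSIG1 (chr7:155297628-155297877, plus strand): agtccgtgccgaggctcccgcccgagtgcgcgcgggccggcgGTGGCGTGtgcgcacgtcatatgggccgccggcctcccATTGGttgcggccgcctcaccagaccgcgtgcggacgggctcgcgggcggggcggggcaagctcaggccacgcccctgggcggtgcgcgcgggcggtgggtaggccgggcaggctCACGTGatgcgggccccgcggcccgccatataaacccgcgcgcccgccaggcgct
INSIG2 (chr2:118088221-118088470, plus strand): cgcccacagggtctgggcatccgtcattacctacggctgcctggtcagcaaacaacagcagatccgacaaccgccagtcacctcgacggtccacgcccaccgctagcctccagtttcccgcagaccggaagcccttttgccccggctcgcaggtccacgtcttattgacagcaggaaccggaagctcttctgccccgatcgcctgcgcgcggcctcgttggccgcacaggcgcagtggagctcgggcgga
SREBF2 (chr22:41832855-41833104, plus strand): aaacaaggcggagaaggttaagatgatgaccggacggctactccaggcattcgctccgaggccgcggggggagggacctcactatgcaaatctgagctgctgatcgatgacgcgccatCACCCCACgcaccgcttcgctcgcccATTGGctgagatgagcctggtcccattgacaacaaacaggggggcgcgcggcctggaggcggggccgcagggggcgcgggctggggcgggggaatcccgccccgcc
HMGCS1 (chr5:43313413-43313662, minus strand): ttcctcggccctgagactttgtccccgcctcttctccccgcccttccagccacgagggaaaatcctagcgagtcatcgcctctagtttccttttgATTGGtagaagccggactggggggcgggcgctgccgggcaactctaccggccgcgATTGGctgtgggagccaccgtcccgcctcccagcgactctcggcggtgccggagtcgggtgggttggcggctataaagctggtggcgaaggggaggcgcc
DHCR7 (chr11:71448394-71448643, minus strand): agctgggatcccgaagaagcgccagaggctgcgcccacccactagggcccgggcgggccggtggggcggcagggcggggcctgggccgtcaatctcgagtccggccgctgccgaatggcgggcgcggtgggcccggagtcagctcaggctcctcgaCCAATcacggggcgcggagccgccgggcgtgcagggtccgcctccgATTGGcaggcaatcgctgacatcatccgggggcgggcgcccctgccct
TM7SF2 (chr11:65111622-65111871, plus strand): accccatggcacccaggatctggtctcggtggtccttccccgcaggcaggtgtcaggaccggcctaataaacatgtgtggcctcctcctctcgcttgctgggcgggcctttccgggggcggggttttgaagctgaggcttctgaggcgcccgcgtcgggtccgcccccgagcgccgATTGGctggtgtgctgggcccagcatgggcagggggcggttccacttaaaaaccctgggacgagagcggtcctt
Motifs were counted by gene, and a gene with several start sites was counted when any of its windows held the motif. The CCAAT box was present in 21 of the 29 genes (72.4%). It was present in 41.9% of 10505 genes of the table that had a window and in 37.0% of all 27305 genes that had one. The core CACNCCAC was present in 6 of 29 (20.7%), against 6.57% and 5.89% of the same sets of genes. The full classical element, which contains that core, was found in 1 of 29, SREBF2, and in 0.0476% of table genes and 0.0440% of all genes. The Sp1 box GGGCGG was present in 28 of 29 (96.6%), against 74.2% and 46.2%, and the E-box CACGTG in 3 of 29 (10.3%), against 11.1% and 7.73%. The 8 genes without CCAAT in these windows were PMVK, CYP51A1, INSIG2, SREBF1, SCAP, FADS1, FADS2 and ELOVL6. A match describes letters in a window and is not a measured site, and its absence says only that the letters are not in that window.

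Library size and identity were checked once for the whole set. The libraries held 16628595 to 32860333 reads in listed genes (median 22123187), and a level is given as scaled CPM, CPM adjusted by a scaling factor of the library, in which 1 read was worth 0.0301 to 0.0622. The smallest number of reads of any member in any library was 137. Of the epithelial and colonic markers, CDX2 was at 2234 to 3977, KRT8 at 142 to 340 and KRT18 at 57.9 to 130.1 scaled CPM, whereas EPCAM was at 1.04 to 4.16 and CDH1 at 0 to 2.51. The 4 fibroblast markers in the table summed to 23.8 to 27.6 scaled CPM in Helicon 4 10 µM libraries at 48 h, 4.83 to 7.97 in Helicon 4-neg 10 µM libraries and 6.16 to 42.5 in DMSO libraries, and the lowest value of DCN and of COL1A2 in the 63 libraries was 0. Both libraries that stood apart had Helicon 4-neg for 48 h: replicate 3 at 3 µM and replicate 1 at 1 µM. Their nearest library was the other of the pair and the next nearest was a 24 h library, and their mitochondrial transcripts made up 1.94% and 1.81% of the summed level, against 3.59% to 4.30% in the other libraries of the same groups. Results at 48 h that rest on these libraries are given with and without them. Replicate 1 of Helicon 4 10 µM at 24 h lay farthest from the other replicates of its group, by a root mean square log2 difference of 0.280. That value was 0.272 for Helicon 4-neg 3 µM 48 h replicate 3 and 0.238 for 1 µM 48 h replicate 1. The nearest library to this Helicon 4 replicate was of the same time. It was left out only where each replicate was left out in turn.

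Read against gene length, SCD, the desaturase that makes monounsaturated fatty acids, had the highest mean level of the members, at 127.0 scaled CPM per kilobase. EBP, a sterol isomerase, followed at 96.7 per kilobase and FDFT1, squalene synthase, at 78.6. SREBF1 and ACSS2, the cytosolic acetyl-CoA synthetase, were lowest, at 4.10 and 4.18 per kilobase. Across the 63 libraries the highest level was 6.34 times the lowest for CYP51A1 and 4.32 times for FASN, and 1.40 times for PMVK, the steadiest member.

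The 33 levels summed to 5962, 5840 and 6160 scaled CPM in the Helicon 4 10 µM libraries at 6 h, 5950, 5792 and 5855 in the Helicon 4-neg 10 µM libraries and 5474, 5666 and 5568 in the DMSO libraries. At 48 h the sums were 3322, 3276 and 3317 with Helicon 4, 5601, 5675 and 5628 with Helicon 4-neg and 5033, 4857 and 4893 with DMSO. The libraries of both compounds lay above DMSO at 6 h, and at 48 h the compounds lay on opposite sides of it, with no overlap. Mitochondrial transcripts, an indicator of library quality, had medians of 2.93% with Helicon 4, 3.27% with Helicon 4-neg and 3.50% with DMSO at 6 h. At 48 h these were 3.56% with Helicon 4, 4.20% with Helicon 4-neg and 4.56% with DMSO, and their part in these differences was not tested.

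**Figure D1:**
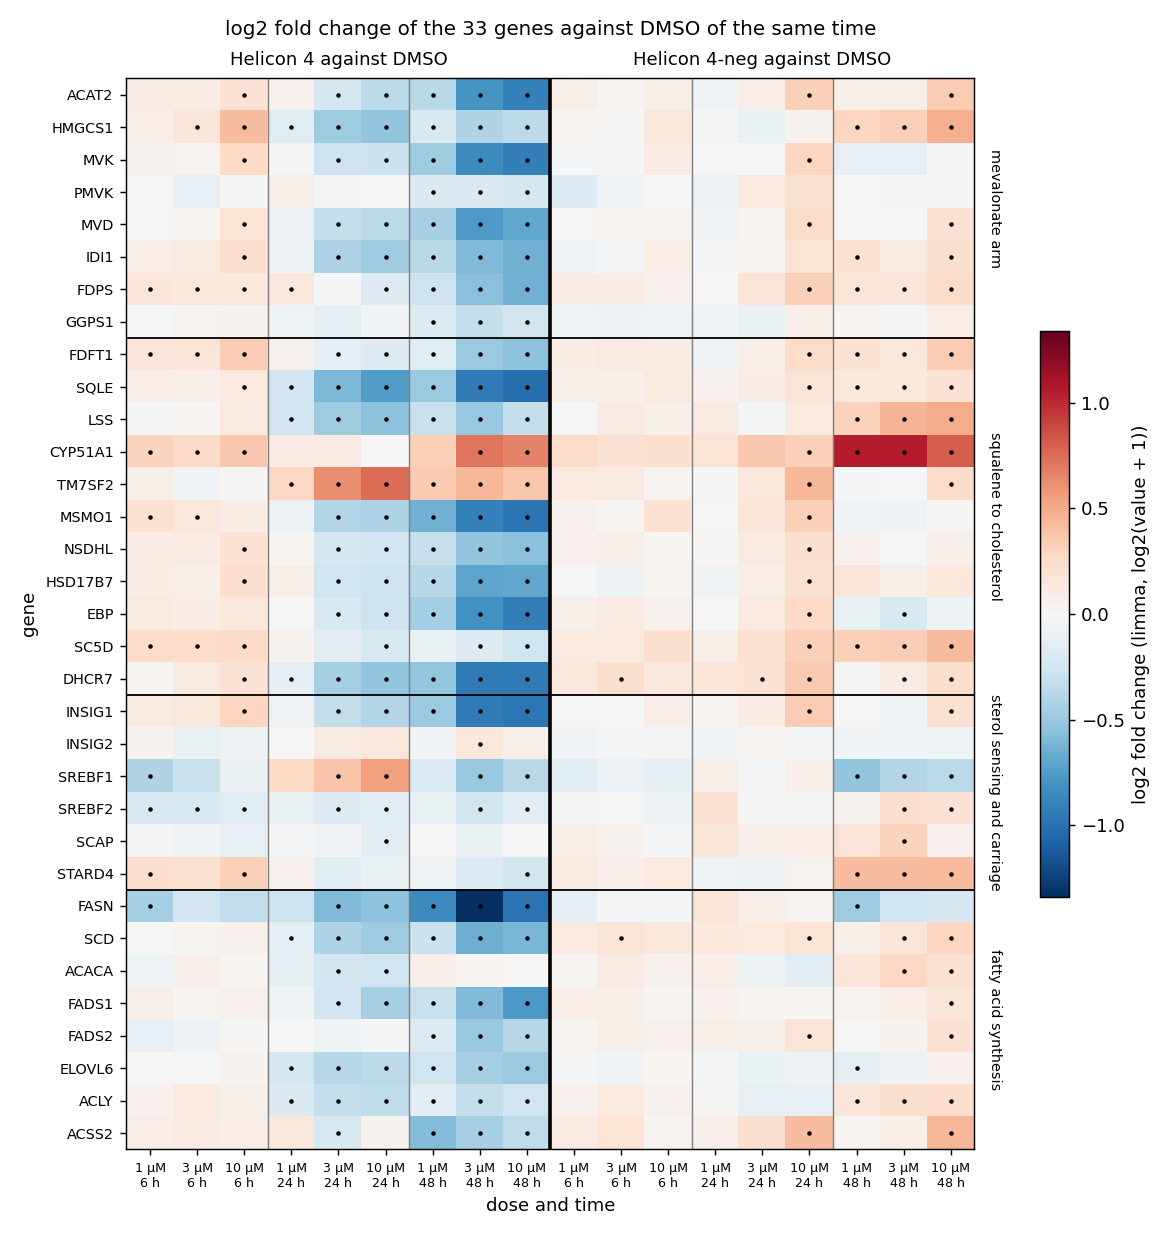
Log2 fold change of each of the 33 genes (rows, grouped by role) against DMSO of the same time, for each compound, dose and time (columns, 3 libraries each); colour gives the log2 fold change and a dot marks a call at an adjusted p below 0.05. With Helicon 4 at 10 µM, 15 of 33 genes are called higher at 6 h and 28 of 33 are called lower at 48 h. With Helicon 4-neg at 10 µM, 18 are called higher at 24 h and 21 at 48 h, and fewer at its lower doses.

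At 6 h, Helicon 4 at 10 µM against DMSO asked what the compound did early, and the sterol enzymes rose modestly. Of the 33 genes, 15 were higher and 1 was lower, against 5.32% and 8.40% of all 13057 genes tested. The median log2 fold change of the 33 was 0.12, against -0.01 over all genes. In the mevalonate arm 6 of 8 rose, and of the steps through squalene 7 of 11 rose. Among the sensing genes 2 rose and 1 fell, and in fatty acid synthesis 0 of 8 were called. Of 5 epithelial and colonic markers tested, 1 was higher and 1 lower in the same comparison, the lower one CDX2 at -0.40 (adjusted p = 2.45e-09). The 5 summed to 2717 to 2776 scaled CPM with Helicon 4 and 3494 to 3553 with DMSO. Most of that sum was CDX2, at 2501, 2491 and 2542 with Helicon 4 and 3329, 3336 and 3279 with DMSO. KRT8 (0.05) and EPCAM (0.08) were not called. The part of the markers in the rise was not tested.

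HMGCS1, the cytosolic synthase that commits acetyl-CoA units to the mevalonate arm, had the largest rise at 6 h. Its level was 241, 238 and 249 scaled CPM with Helicon 4 at 10 µM, 201, 199.5 and 206 with Helicon 4-neg and 174, 177 and 195 with DMSO. Every Helicon 4 library exceeded every DMSO library, with a log2 fold change of 0.42 (SE 0.04, adjusted p = 7.81e-08). CYP51A1, which removes a methyl group from lanosterol, was at 43.4, 43.5 and 44.9 with Helicon 4 and 34.4, 34.2 and 33.1 with DMSO. The groups did not overlap and the log2 fold change was 0.36 (SE 0.06, adjusted p = 7.09e-05), a call that 1 fit of all 63 libraries did not keep (adjusted p = 0.158). FDFT1, which joins the isoprenoid units into squalene, was at 477, 483 and 497 with Helicon 4 and 386, 363 and 407 with DMSO, again without overlap, with a log2 fold change of 0.33 (SE 0.04, adjusted p = 9.01e-07).

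The sensor INSIG1 moved with the enzymes. Its level at 6 h was 125, 131 and 136 with Helicon 4 at 10 µM, 117, 105 and 119.7 with Helicon 4-neg and 107, 101 and 113 with DMSO, and the rise over DMSO was 0.28 on the log2 scale (SE 0.05, adjusted p = 0.000200). STARD4, which carries cholesterol between membranes, was the other sensing or carriage gene that rose, by 0.32 (adjusted p = 0.00249). INSIG2, the paralog of INSIG1, read 27.6, 27.9 and 28.8 with Helicon 4 and 28.7, 27.0 and 32.7 with DMSO and was not called (interval of the difference -0.21 to 0.08).

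The transcripts of the SREBPs themselves did not rise at 6 h. SREBF2, which encodes SREBP2, was at 333, 308 and 326 with Helicon 4 and 343, 391 and 348 with DMSO, so that each Helicon 4 library was below each DMSO library. The log2 fold change was -0.16 (SE 0.05, adjusted p = 0.0450), and this call was not stable. The adjusted p was 0.0505, 0.193 and 0.0802 without Helicon 4 replicates 1, 2 and 3 and 0.261 without DMSO replicate 2, whose level was the highest. Without DMSO replicate 3 the number of members called lower was 2. SREBF1, which encodes SREBP1, was at 33.6, 28.0 and 36.7 with Helicon 4 and 30.6, 42.9 and 31.5 with DMSO, groups that overlap (interval -0.29 to 0.13). The same DMSO library was highest for SREBF1 and for FASN, fatty acid synthase, which read 259, 210.2 and 263 with Helicon 4 and 275, 404 and 254 with DMSO and was not called.

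Lower doses gave fewer calls at 6 h. Helicon 4 at 1 µM had 6 genes higher and 3 lower than DMSO, against 5.61% and 7.07% of all genes, and at 3 µM 6 higher and 1 lower, against 4.65% and 4.52%. These small counts moved with single libraries. At 1 µM the 6 higher became 3 without Helicon 4 replicate 2, 1 without DMSO replicate 2 and 10 without DMSO replicate 3, and the 3 lower became 0 without Helicon 4 replicate 1, Helicon 4 replicate 2 or DMSO replicate 2. At 3 µM the 1 lower became 0 without Helicon 4 replicate 1, Helicon 4 replicate 2 or DMSO replicate 2, 2 without DMSO replicate 1 and 3 without DMSO replicate 3. Also at 3 µM, leaving out Helicon 4 replicate 2, Helicon 4 replicate 3 or DMSO replicate 1 gave 3 in place of the 6. A slope of level on log dose was called upward in 8 of 33 genes and downward in 0, against 3.45% and 5.24% of all genes (8.68% in either direction), and the slope of HMGCS1 was 0.33 per 10-fold dose (adjusted p = 2.55e-06). The count of slopes was 5, 4 and 5 without Helicon 4 10 µM replicate 1, 10 µM replicate 3 and 1 µM replicate 2, in that order.

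**Figure D2:**
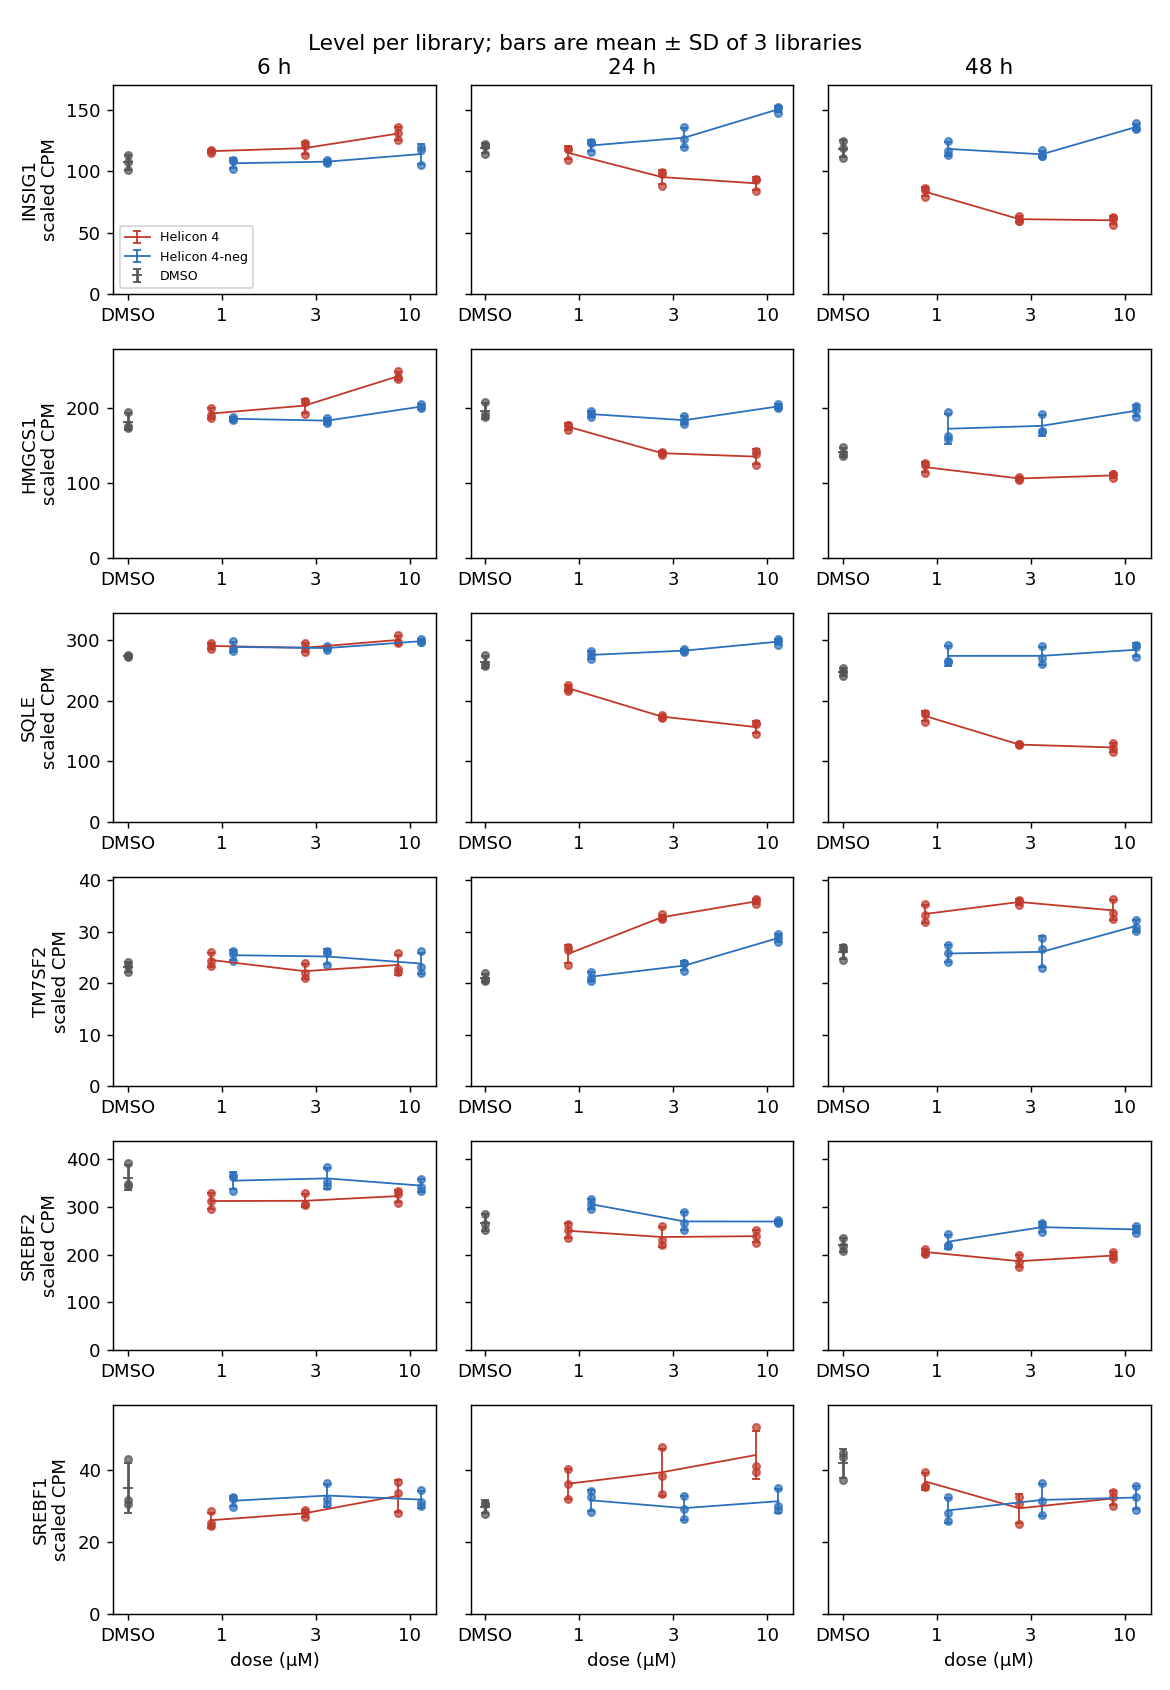
Level per library in scaled CPM (points; bars are mean ± SD of 3 libraries) of 6 genes against dose, with DMSO at the low end, at 6, 24 and 48 h; each row has its own axis from 0. With Helicon 4 at 3 and 10 µM, INSIG1, HMGCS1 and SQLE lie below DMSO at 24 and 48 h while TM7SF2 lies above it; SREBF1 is above DMSO at 24 h and below it at 48 h.

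By 24 h the direction had turned. With Helicon 4 at 10 µM, 24 of 33 genes were lower and 2 higher than DMSO, against 27.6% and 25.1% of all 13213 genes tested, and the median log2 fold change was -0.27, against -0.01 over all genes. Lower genes were 6 of 8 in the mevalonate arm, 9 of 11 in the steps through squalene, 3 of 6 in sensing and carriage and 6 of 8 in fatty acid synthesis. Of the 5 epithelial and colonic markers 2 were higher and 1 lower, with KRT8 at 0.74 (adjusted p = 3.79e-12) and CDX2 at -0.59 (adjusted p = 7.91e-12), and their part in the fall was not tested. SQLE, squalene epoxidase, fell most. It read 145, 162 and 163 with Helicon 4 and 275, 260.5 and 256 with DMSO, with no overlap and a log2 fold change of -0.75 (SE 0.04, adjusted p = 3.58e-12). LSS, lanosterol synthase, which closes the sterol rings, read 83.6, 81.1 and 87.6 with Helicon 4 and 125, 122 and 124 with DMSO, a fall of the same kind (-0.55, SE 0.05, adjusted p = 2.18e-09). HMGCS1, the gene that had risen most, was now at 143, 124 and 139 with Helicon 4 and 208, 188 and 191 with DMSO (-0.53, adjusted p = 5.04e-09).

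FASN showed how uneven replicates limit one of these calls. It read 231, 110.4 and 144 with Helicon 4 at 10 µM and 228, 206 and 248 with DMSO at 24 h, so that replicate 1 of Helicon 4 lay among the DMSO libraries. The log2 fold change of -0.55 (SE 0.21) had an adjusted p of 0.0360. It became 0.236 without Helicon 4 replicate 2, 0.1002 without Helicon 4 replicate 3, 0.0733 without DMSO replicate 1 and 0.110 without DMSO replicate 3.

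More genes fell at the higher doses. At 24 h, 7 genes were lower with Helicon 4 at 1 µM (10.3% of all genes) and 22 at 3 µM (24.4% of all genes), beside the 24 at 10 µM. Higher genes numbered 2 at 1 µM (8.59% of all genes) and 2 at 3 µM (20.8%). The 2 at 1 µM became 1 without Helicon 4 replicate 1, Helicon 4 replicate 3 or any 1 of the 3 DMSO replicates, and the 2 at 3 µM became 1 without Helicon 4 replicate 1 or DMSO replicate 2. Leaving out Helicon 4 1 µM replicate 1 gave 3 in place of the 7, as did leaving out DMSO replicate 1. Downward slopes were called in 18 genes and an upward slope in 1, TM7SF2, against 20.2% and 15.7% of all genes (35.9% in either direction). INSIG1 illustrates the steps: it read 118, 109 and 118 at 1 µM, 88.3, 97.8 and 99.3 at 3 µM and 84.1, 93.7 and 92.6 at 10 µM, against 120.3, 114 and 122 with DMSO. Its log2 fold changes were -0.05, not called, then -0.32 and -0.40 (adjusted p = 6.60e-05 and 3.24e-06).

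At 48 h still more of the genes were called lower. With Helicon 4 at 10 µM, 28 of 33 genes were lower and 2 higher than DMSO, against 28.7% and 31.1% of all 13478 genes tested. The median log2 fold change was -0.50, against 0.02 over all genes. All 8 genes of the mevalonate arm fell, with 9 of 11 in the steps through squalene, 4 of 6 in sensing and carriage and 7 of 8 in fatty acid synthesis. ACACA, acetyl-CoA carboxylase, was the fatty acid gene that was not called (0.00, interval -0.14 to 0.13), and SCAP and INSIG2 were the sensing genes not called. Markers moved in the same comparison, with 4 of 5 epithelial and colonic markers higher and 1 lower and 1 of 4 fibroblast markers higher: CDX2, the most abundant epithelial marker, had a log2 fold change of -0.74 (adjusted p = 6.60e-13), KRT8 of 0.67 (adjusted p = 1.06e-11) and the fibroblast collagen COL3A1 of 1.77 (adjusted p = 3.05e-10). Their part in the fall was not tested.

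The deepest falls were about 1 on the log2 scale. SQLE read 116, 122 and 131 with Helicon 4 at 10 µM and 254, 248 and 240.2 with DMSO (-1.003, SE 0.05, adjusted p = 6.34e-14). FASN read 155, 138 and 122 with Helicon 4 and 255, 276 and 295 with DMSO, now without overlap (-0.99, SE 0.11, adjusted p = 8.05e-08). MSMO1, which oxidises methyl groups of the sterol ring, read 71.7, 72.5 and 79.6 with Helicon 4 and 156, 143 and 145 with DMSO (-0.98, SE 0.05, adjusted p = 1.12e-13). In each of these genes all 3 treated libraries lay below all 3 solvent libraries. INSIG1 read 60.8, 56.6 and 62.7 with Helicon 4 and 119, 111 and 124 with DMSO (-0.96, adjusted p = 1.40e-13). MVK, mevalonate kinase, read 39.5, 41.9 and 36.8 with Helicon 4 and 71.0, 75.6 and 77.8 with DMSO (-0.91, adjusted p = 2.22e-12). Sensor and kinase libraries were separated by treatment without overlap.

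Some further members of each role, not all of them, are described by their change with Helicon 4 at 10 µM and 48 h. In the mevalonate arm, the decarboxylase MVD had a log2 fold change of -0.69, the isomerase IDI1 -0.64 and farnesyl diphosphate synthase FDPS -0.64, whereas the kinase PMVK and the geranylgeranyl diphosphate synthase GGPS1 moved less (-0.22 and -0.25). Among the later sterol steps, EBP fell most of this set (-0.93), followed by the ketoreductase HSD17B7 (-0.70), the demethylating dehydrogenase NSDHL (-0.56) and the desaturase SC5D (-0.27). Of the sensing and carriage genes, STARD4 was at -0.25, against 0.32 at 6 h. In fatty acid synthesis SCD had -0.61, the elongase ELOVL6 -0.50 and the citrate lyase ACLY, which supplies cytosolic acetyl-CoA, -0.27. Every gene in these sentences was called.

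At 48 h the lower doses also gave broad falls. Lower genes numbered 24 at 1 µM (21.2% of all genes) and 27 at 3 µM (28.5%), and higher genes 1 (19.7%) and 3 (30.8%). The 1 became 2 without both libraries that stood apart (22.45% of all genes higher), and the 3 became 1 without DMSO replicate 3. Slopes of dose were called downward in 18 genes and upward in 1, ACSS2, against 15.1% and 16.2% of all genes (31.3% in either direction). SQLE read 179, 179.6 and 166 at 1 µM, 128, 127 and 128 at 3 µM and 116, 122 and 131 at 10 µM, so the step was larger between 1 and 3 µM than between 3 and 10 µM. DHCR7, the last reductase before cholesterol, gave log2 fold changes of -0.52, -0.95 and -0.93 at 1, 3 and 10 µM.

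**Figure D3:**
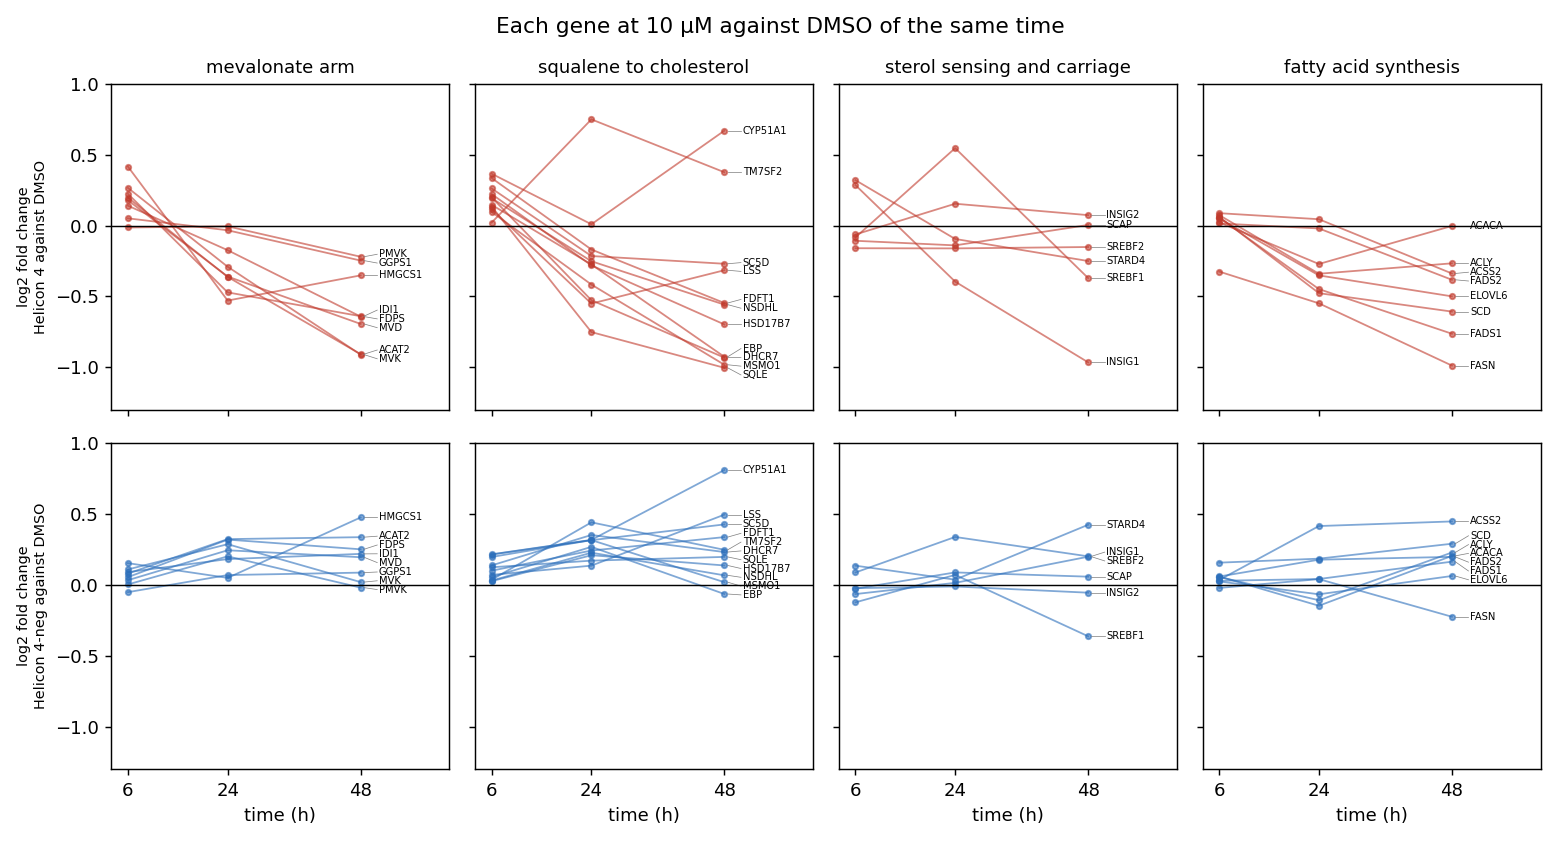
Log2 fold change of each gene at 10 µM against DMSO of the same time (y axis) over time in hours (x axis), by role in columns, with Helicon 4 in the upper row and Helicon 4-neg in the lower; each line is 1 gene and each point a contrast of 3 against 3 libraries. With Helicon 4 most lines cross 0 between 6 and 24 h, SQLE reaching -1.003 at 48 h, and TM7SF2 and CYP51A1 stay or end above it; with Helicon 4-neg most lines end above 0.

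A few members kept apart from the rest. TM7SF2, a sterol C14 reductase of the same pathway, rose while its neighbours fell. Its level at 24 h was 35.3, 36.3 and 36.1 with Helicon 4 at 10 µM, 28.1, 29.6 and 28.7 with Helicon 4-neg and 20.6, 21.9 and 20.4 with DMSO, 3 groups with no overlap. The rise over DMSO was 0.75 at 24 h (SE 0.05, adjusted p = 3.44e-10) and 0.38 at 48 h (SE 0.07, adjusted p = 9.32e-05). At 48 h it read 36.2, 32.5 and 33.6 with Helicon 4, 30.1, 30.9 and 32.3 with Helicon 4-neg and 24.6, 26.6 and 27.0 with DMSO.

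CYP51A1 was the other gene above DMSO at 48 h, at 14.9, 15.3 and 12.7 with Helicon 4 at 10 µM, 15.8, 15.8 and 15.9 with Helicon 4-neg and 10.5, 8.60 and 7.07 with DMSO. Both compounds lay above the solvent, which had itself dropped far below its 6 h level. The log2 fold change with Helicon 4 was 0.67 (SE 0.23, adjusted p = 0.0160), and with Helicon 4-neg 0.81 (SE 0.23, adjusted p = 0.0182). The first call, and with it 1 of the 2 higher genes, was lost without Helicon 4 replicate 2 (adjusted p = 0.0528) or DMSO replicate 3 (0.0784). The second was lost without Helicon 4-neg replicate 2 (0.0555) or 3 (0.0542) and without DMSO replicate 2 (0.0600) or 3 (0.0956), and neither was called under robust empirical Bayes (0.0533 with Helicon 4 and 0.0582 with Helicon 4-neg).

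SREBF1 changed direction between times. It read 51.7, 39.3 and 41.1 with Helicon 4 at 10 µM and 30.5, 27.6 and 30.9 with DMSO at 24 h, a rise of 0.55 (SE 0.12, adjusted p = 0.000590). At 48 h it read 33.7, 32.5 and 29.9 with Helicon 4, 35.4, 28.9 and 32.5 with Helicon 4-neg and 37.1, 44.7 and 43.5 with DMSO, and the libraries of both compounds lay below every DMSO library. The log2 fold change with Helicon 4 was then -0.37 (adjusted p = 0.00421). SREBF2 read 206, 198 and 191 with Helicon 4 at 10 µM, 259.9, 253 and 245 with Helicon 4-neg and 236, 207 and 219 with DMSO at 48 h. Against DMSO it was -0.15 with Helicon 4 (adjusted p = 0.0188) and 0.20 with Helicon 4-neg (adjusted p = 0.0141). The Helicon 4 call was lost without Helicon 4 replicate 3 (adjusted p = 0.0830) or DMSO replicate 1 (0.130), and the Helicon 4-neg call without Helicon 4-neg replicate 1 (0.0522) or DMSO replicate 2 (0.0978) or 3 (0.0538). At 24 h its log2 fold change with Helicon 4 was -0.16 (adjusted p = 0.0363), and this p became 0.156 and 0.0667 without Helicon 4 replicates 2 and 3, 0.182 and 0.0595 without DMSO replicates 1 and 3, and 0.0520 in edgeR.

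Helicon 4-neg was followed by higher levels of many of these genes at the later times. It was compared with the same DMSO libraries as Helicon 4, so the pair of comparisons share their controls. At 6 h and 10 µM, limma called 0 genes higher and 0 lower, against 0.146% and 0.115% of all genes, and edgeR called 0. An unadjusted limma p under 0.05 was found in 9 of 33, against 1488 of all 13057 genes. The median log2 fold change of the 33 was 0.06, against -0.002 over all genes. Of the 33 genes 27 were positive, all read against the same DMSO libraries, and the share of positive genes over all genes was not counted. Without DMSO replicate 3 the count called higher was 3. At 24 h and 10 µM, 18 genes were higher and 0 lower, against 5.55% and 6.16% of all genes, with a median of 0.18 against 0.00 over all genes. At 48 h and 10 µM, 21 were higher and 1 lower, against 10.4% and 8.55% of all genes, with a median of 0.20 against 0.01. Markers moved at 48 h here too, in both directions. Of the epithelial and colonic markers, CDX2 was at -0.13 (adjusted p = 0.0334) and KRT8 at -0.17 (adjusted p = 0.0135). EPCAM, a marker of low level, went the other way, at 0.57 (adjusted p = 0.027). The fibroblast collagen COL3A1 was at -0.57 (adjusted p = 0.00914). The part of the markers in the rise was not tested.

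In the steps through squalene, 10 of 11 genes were higher with Helicon 4-neg at 24 h and 7 at 48 h. The mevalonate arm had 4 of 8 and 5, and fatty acid synthesis 3 of 8 and 6, at the same times. ACSS2 read 21.9, 23.2 and 22.2 with Helicon 4-neg and 17.1, 17.4 and 15.4 with DMSO at 24 h, without overlap (0.41, SE 0.08, adjusted p = 0.00260). DHCR7 read 285, 272 and 273 with Helicon 4-neg and 224, 208 and 218 with DMSO at 24 h (0.35, SE 0.04, adjusted p = 4.03e-05), and TM7SF2 rose by 0.44 (adjusted p = 0.000163). At 48 h the largest rises after CYP51A1 were those of LSS and HMGCS1. HMGCS1 read 189, 203 and 197 with Helicon 4-neg and 148, 139 and 136 with DMSO (0.47, SE 0.06, adjusted p = 0.000128). LSS read 114, 119 and 112 with Helicon 4-neg and 84.6, 79.8 and 79.2 with DMSO (0.49, SE 0.09, adjusted p = 0.00134). All 3 Helicon 4-neg libraries exceeded all 3 DMSO libraries in both.

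INSIG1 also rose with Helicon 4-neg, by 0.34 at 24 h (adjusted p = 0.00135) and 0.20 at 48 h (adjusted p = 0.00932). The 48 h call was lost without DMSO replicate 2 (adjusted p = 0.0719). The 1 lower gene at 48 h was SREBF1 (-0.36, adjusted p = 0.0197), whose adjusted p became 0.110 and 0.0513 without Helicon 4-neg replicates 2 and 3 and 0.0976 and 0.0828 without DMSO replicates 2 and 3. EBP, MVK and MSMO1 were not called against DMSO at 48 h, with intervals of -0.16 to 0.03, -0.10 to 0.13 and -0.09 to 0.12.

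At 1 and 3 µM Helicon 4-neg gave few calls before 48 h. At 6 h limma called 0 and 2 genes higher and 0 lower at either dose (0.00766% and 0.781% of all genes higher, 0.023% and 0.965% lower), with the same calls in edgeR. An unadjusted limma p under 0.05 was found in 10 and 13 members, against 1608 and 1854 of all 13057 genes. The 2 became 0 without Helicon 4-neg replicate 1 or 3, 1 without DMSO replicate 1 and 4 without DMSO replicate 3, and the 0 at 1 µM became 1 without Helicon 4-neg replicate 3. At 24 h limma called 0 and 1 higher and 0 lower (0.0% and 0.431% of all genes higher, 0.0% and 1.93% lower), and edgeR called 0 and 3 higher. Members at an unadjusted limma p under 0.05 numbered 5 and 10, against 676 and 2345 of all 13213 genes. The 1 became 0 without Helicon 4-neg replicate 1, Helicon 4-neg replicate 3 or DMSO replicate 2. At 48 h, 10 genes were higher and 3 lower at 1 µM (14.0% and 10.3% of all genes), and 14 higher and 2 lower at 3 µM (15.8% and 12.5%). Without both libraries that stood apart these counts were 8 and 2 at 1 µM (9.48% and 6.69% of all genes) and 11 and 2 at 3 µM (11.7% and 9.26%). The shares of all genes were thus lower in that setting too. The count of 10 became 5 when 1 µM replicate 1 alone was left out, and the 2 lower at 3 µM became 1 without 3 µM replicate 3. Slopes of dose were called by limma in 0 genes at 6 h (0.0153% of all genes upward, 0.046% downward and 0.0613% in either direction), and by edgeR in 0. Those at an unadjusted limma p under 0.05 numbered 6, against 873 of all 13057 genes. At 24 h, 16 were upward and 2, SREBF2 and ACACA, downward, against 9.87% and 9.9% of all genes (19.8% in either direction). At 48 h slopes were called in 9, all upward, against 1.14% upward, 1.11% downward and 2.24% in either direction. Without both libraries slopes were called in 14, for which the share of all genes is not given. The 9 became 5, 3 and 4 without 10 µM replicates 1, 2 and 3, and 4 and 3 without 1 µM replicates 2 and 3.

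**Figure D4:**
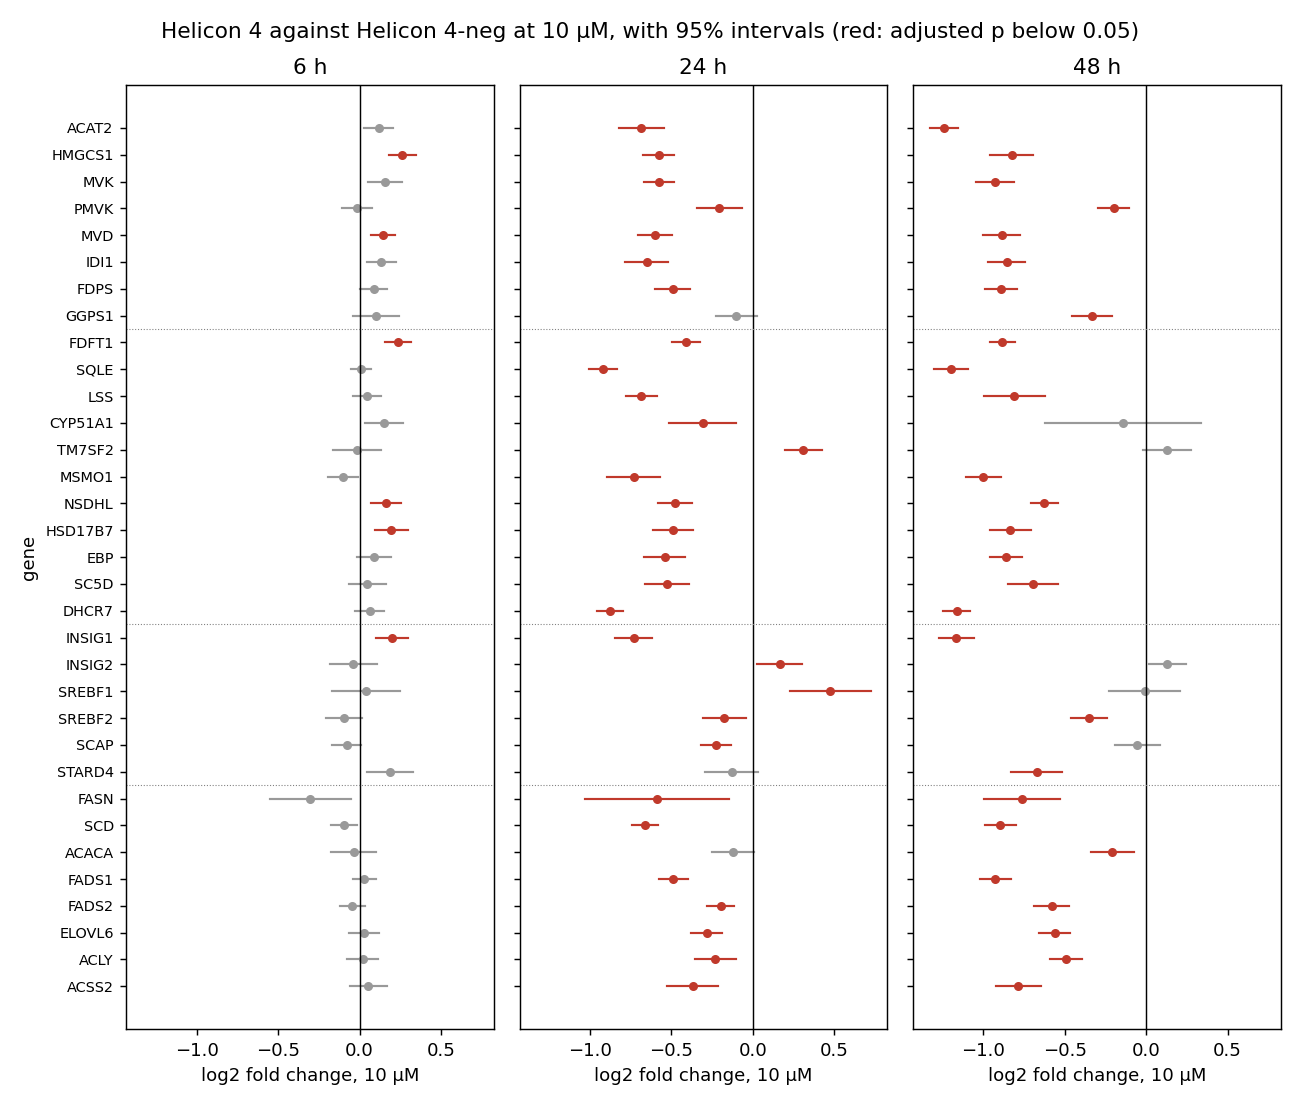
Log2 fold change of Helicon 4 against Helicon 4-neg at 10 µM (x axis) for each of the 33 genes (rows, dotted lines between roles) at 6, 24 and 48 h; points are estimates from 3 against 3 libraries, bars are 95% intervals, and red marks an adjusted p below 0.05. Few genes are red at 6 h (6, all to the right of 0), whereas 27 at 24 h and 28 at 48 h are red to the left of 0.

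Helicon 4 and Helicon 4-neg were then set against each other at 9 matched pairs of dose and time, which asks what separates the compounds. At 6 h and 10 µM, 6 genes were higher with Helicon 4 and 0 lower, against 2.72% and 5.71% of all genes. With p-values adjusted over all genes and all 9 pairs together the count was 11 higher and 0 lower. That joint adjustment pools the many small p-values of the later times and was therefore more lenient at 6 h. The share of all genes called under it was not counted. At 24 h, 27 were lower and 3 higher (27.6% and 25.1% of all genes), with 27 and 2 under the joint adjustment. At 48 h, 28 were lower and 0 higher (27.0% and 26.7% of all genes), with the same counts under the joint adjustment and 1 higher gene in edgeR. In either direction, 29 genes had an unadjusted limma p under 0.05, against 7846 of all 13478 genes. The median log2 difference of the 33 was 0.05, -0.49 and -0.78 at 6, 24 and 48 h, against 0.00, 0.00 and 0.01 over all genes. Markers also separated the compounds. CDX2 differed by -0.37 (adjusted p = 7.57e-09) at 6 h and -0.61 (adjusted p = 2.23e-11) at 48 h, and at 48 h KRT8 differed by 0.83 (adjusted p = 2.15e-13) and COL3A1 by 2.35 (adjusted p = 2.58e-12). Their part in the separation was not tested.

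Lower doses also separated the compounds at 24 and 48 h. At 1 µM, 11 genes were lower and 2 higher with Helicon 4 at 24 h (14.1% and 11.4% of all genes), and 28 lower and 2 higher at 48 h (20.1% and 15.8%). At 3 µM, 26 were lower and 2 higher at 24 h (23.3% and 19.6%), and 29 lower and 2 higher at 48 h (26.6% and 25.9%). Leaving out both libraries that stood apart gave 27 lower and 2 higher at 1 µM at 48 h (20% and 15.4% of all genes). At 3 µM it gave 29 and 2 at 48 h (26.68% and 26.67%). Each count of 2 became 1 when single libraries were left out: at 24 h and 1 µM any of Helicon 4 replicates 1 and 3 or the 3 Helicon 4-neg replicates, at 24 h and 3 µM Helicon 4 replicate 1 or Helicon 4-neg replicate 3, at 48 h and 1 µM Helicon 4 replicate 3 or Helicon 4-neg replicate 1, and at 48 h and 3 µM Helicon 4-neg replicate 1. The 11 lower genes at 1 µM and 24 h became 7 without Helicon 4 replicate 1, without Helicon 4 replicate 3 or without Helicon 4-neg replicate 1. At 6 h limma called 0 genes either way at 1 µM (0.00766% of all genes higher and 0.0536% lower), and edgeR 0. At 3 µM limma called 0 higher and 1 lower (0.475% and 1.16%), with the same calls in edgeR. An unadjusted limma p under 0.05 was found in 12 members at 1 µM and 13 at 3 µM, against 1825 and 1851 of all 13057 genes. The 0 lower at 1 µM became 1 without Helicon 4 replicate 3. At 3 µM the 1 lower became 0 without Helicon 4 replicate 2 or any 1 of the 3 Helicon 4-neg replicates, and the 0 higher became 1 without Helicon 4 replicate 1. The joint adjustment, more lenient at 6 h, gave 4 higher and 4 lower at 1 µM and 4 higher and 3 lower at 3 µM, both at 6 h. FADS2 at 1 µM, for example, had an adjusted p of 0.0991 within the limma contrast and 0.00358 jointly.

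Single genes show the size of the separation, with p-values adjusted over the 9 pairs. ACAT2, the thiolase that makes acetoacetyl-CoA, read 86.6, 87.9 and 91.4 with Helicon 4 at 10 µM and 201, 219 and 214 with Helicon 4-neg at 48 h, a difference of -1.24 (SE 0.04, adjusted p = 1.31e-16). SQLE differed by -1.20 (SE 0.05, adjusted p = 8.44e-15) and INSIG1 by -1.16 (SE 0.05, adjusted p = 1.60e-14). In these 3 genes no library of one compound reached the range of the other. At 6 h the largest of the called differences, all upward, were those of HMGCS1, by 0.26 (adjusted p = 1.54e-05), FDFT1, by 0.24 (adjusted p = 2.97e-05) and INSIG1, by 0.20 (adjusted p = 0.00233). Adjusted within the contrast alone, the INSIG1 call at 6 h was lost without Helicon 4 replicate 3 (adjusted p = 0.0589) or Helicon 4-neg replicate 2 (0.0944).

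The 5 members not called between the compounds at 10 µM and 48 h are given with the interval of their difference. SREBF1 differed by -0.01 (interval -0.23 to 0.21), SCAP by -0.05 (interval -0.19 to 0.09), CYP51A1 by -0.14 (interval -0.62 to 0.34), TM7SF2 by 0.13 (interval -0.02 to 0.28) and INSIG2 by 0.13 (interval 0.02 to 0.24). At 24 h SREBF1, TM7SF2 and INSIG2 were the 3 genes higher with Helicon 4, by 0.48, 0.31 and 0.17, and adjusted over the 9 pairs their p-values were 0.00357, 0.000130 and 0.0658, the last of which missed the threshold. INSIG2 read 34.0, 39.1 and 34.1 with Helicon 4 and 33.2, 30.8 and 31.1 with Helicon 4-neg, and its adjusted p within the contrast of 0.0424 became 0.231 without Helicon 4 replicate 2, 0.122 and 0.108 without Helicon 4-neg replicates 2 and 3, 0.124 under median centring and 0.0517 with a replicate block. FADS1 and FADS2, fatty acid desaturases that overlap on opposite strands of chromosome 11, were both lower with Helicon 4 at 48 h (-0.93 and -0.58), and since the use of strand in counting is not stated, reads in their overlap cannot be told apart.

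The turn between 6 h and the later times was tested directly as a difference of differences. For Helicon 4 at 10 µM against DMSO, the effect at 24 h was lower than at 6 h in 22 genes and higher in 3, against 19.6% and 19.0% of all 13782 genes, and the effect at 48 h was lower in 26 and higher in 1, against 22.6% and 26.8%. INSIG1 moved most, by -1.25 (SE 0.07, adjusted p = 3.18e-20). MVK changed by -1.17 (SE 0.07, adjusted p = 3.09e-20) and SQLE by -1.14 (SE 0.06, adjusted p = 6.43e-23). TM7SF2 was the 1 gene whose effect was higher at 48 h, by 0.35 (adjusted p = 0.00121). The turn did not deepen in every gene. The difference from 6 h was -0.94 at 24 h and -0.77 at 48 h for HMGCS1, and -0.67 and -0.43 for LSS. For INSIG1 it was -0.68 at 24 h and -1.25 at 48 h. Against Helicon 4-neg at 10 µM, the effect at 48 h was lower than at 6 h in 26 genes and higher in 0 (19.9% and 20.7% of all genes).

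The solvent cultures also moved with time, from which each difference at 48 h is read. In DMSO at 48 h, 17 genes were lower and 9 higher than in DMSO at 6 h, against 29.3% and 25.1% of all genes. CYP51A1 fell most, to 10.5, 8.60 and 7.07 scaled CPM at 48 h, against 34.4, 34.2 and 33.1 at 6 h (-1.86, SE 0.17, adjusted p = 8.74e-14). SREBF2 was at 236, 207 and 219 at 48 h, against 343, 391 and 348 at 6 h (-0.71, adjusted p = 2.06e-14). MVK, which rose most, was at 71.0, 75.6 and 77.8 at 48 h, against 51.6, 55.9 and 56.6 at 6 h (0.45, adjusted p = 4.61e-11). The 9 higher genes became 5 without DMSO 6 h replicate 2, and the 17 lower became 11 when each library was centred on its median.

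Genes of neighbouring pathways were counted in the same fits. Of 9 genes that store and move sterols, 8 were higher and 0 lower with Helicon 4 at 10 µM than with DMSO at 48 h, against 31.1% and 28.7% of all genes, and at 6 h 1 was higher and 1 lower, against 5.32% and 8.40%. NPC2, which hands cholesterol out of the lysosome, was among them at 72.8, 67.3 and 75.8 with Helicon 4, 45.8, 50.5 and 52.3 with Helicon 4-neg and 52.1, 49.6 and 55.4 with DMSO (0.45, adjusted p = 3.38e-06). SOAT1, which esterifies cholesterol, and STARD3, a sterol transfer protein of late endosomes, rose by 0.34 and 0.55 (adjusted p = 5.20e-05 and 1.28e-07). The same list had 4 higher and 0 lower with Helicon 4-neg at 48 h, against 10.4% and 8.55% of all genes, and SOAT1 and STARD3 were among the 4, at 0.25 (adjusted p = 0.00781) and 0.22 (adjusted p = 0.0236).

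Of 9 genes that cut or turn over SREBPs and their partners, 5 were higher and 3 lower with Helicon 4 at 48 h, against 31.1% and 28.7% of all genes, and the share of lower genes was near that of all genes. FBXW7, the ubiquitin ligase subunit that marks nuclear SREBPs for destruction, was at 52.2, 54.1 and 53.3 with Helicon 4, 16.9, 17.7 and 17.2 with Helicon 4-neg and 17.4, 19.2 and 17.7 with DMSO (1.51, adjusted p = 1.90e-15). Its Helicon 4 libraries lay far above both other groups. UBE2G2, a ubiquitin-conjugating enzyme that acts in degradation from the endoplasmic reticulum, fell, with a log2 fold change of -0.35 (adjusted p = 1.06e-06).

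Of the 12 further genes listed as SREBP targets 11 were tested, and with Helicon 4 at 48 h 5 were higher and 2 lower. All genes had 31.1% higher and 28.7% lower, which on 11 genes is close to these counts. TMEM97, a sterol-responsive membrane protein, was at 126, 125 and 132 with Helicon 4, 222, 227 and 241 with Helicon 4-neg and 208, 197 and 198 with DMSO and fell with Helicon 4 (-0.65, adjusted p = 1.13e-10). GPAM, which starts triglyceride synthesis, was at 37.3, 38.6 and 39.2 with Helicon 4, 23.9, 26.0 and 25.2 with Helicon 4-neg and 21.8, 19.2 and 17.6 with DMSO. It rose with both compounds, by 0.94 (adjusted p = 6.75e-08) with Helicon 4 and 0.35 (adjusted p = 0.0259) with Helicon 4-neg, whereas TMEM97 was higher with Helicon 4-neg, by 0.19 (adjusted p = 0.0104). RDH11, a retinol dehydrogenase, fell, with a log2 fold change of -0.50 (adjusted p = 1.51e-07).

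Of 11 genes that consume isoprenoids, 5 were lower and 1 higher with Helicon 4 at 48 h, against 28.7% and 31.1% of all genes. PDSS1, which makes the tail of ubiquinone, was lower with both compounds, at -0.84 (adjusted p = 9.86e-11) with Helicon 4 and -0.31 (adjusted p = 0.00270) with Helicon 4-neg. NUS1, a subunit of the dolichol-making enzyme, was at -0.26 (adjusted p = 7.47e-06) with Helicon 4. Of 7 genes for sterol export and LXR, the nuclear receptor for oxysterols, 5 were tested, and 3 were higher and 0 lower with Helicon 4 at 48 h, against 31.1% and 28.7% of all genes. LPCAT3, a phospholipid acyltransferase and LXR target, rose with both compounds, by 0.57 with Helicon 4 and 0.64 with Helicon 4-neg (adjusted p = 3.71e-05 and 0.000598). MYLIP, a ubiquitin ligase and LXR target, rose by 0.33 with Helicon 4 (adjusted p = 0.00386), and SMPDL3A, a phosphodiesterase and LXR target, by 0.42 (adjusted p = 0.0149). SMPDL3A lay near the filter of 0.5, at 0.955, 0.872 and 1.49 scaled CPM with Helicon 4 and 0.498, 0.478 and 0.722 with DMSO.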

How the data were processed

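Polyadenylated RNA of 63 COLO320DM libraries was measured by RNA-seq. Per the submitters' processing notes, which give no order, the tools were edgeR 4.0.2, Subread 2.4.2, featureCounts, STAR 2.7.7a and Trimmomatic 0.39 on the build GRCh38. The authors deposited 1 table of normalized signal, here called scaled CPM, in which each library's values are whole multiples of the worth of 1 read. Dividing by that worth gave whole reads for 100% of values (tolerance 0.01). These recovered counts served edgeR 4.0.16 as an alternative, which called 4053 genes higher and 4006 lower with Helicon 4 at 10 µM than with DMSO at 48 h, against 4196 and 3865 with limma. The strand setting of counting and the normalization steps are not given in the sources used here.

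Values were tested as log2(value + 1) with limma 3.58.1 (trend, R 4.3.3), fitted per time point on genes of at least 0.5 in at least 3 libraries, with Benjamini-Hochberg adjustment over all genes and a threshold of 0.05. Contrasts between times used 1 fit of all 63 libraries. A fold change on this scale understates the change of low genes. The procedure was also run on simulated counts with the same dispersion in every gene and no libraries that stood apart. That setting does not cover the uneven replicates of these data. Intervals are 95%. Reads without molecular identifiers are not independent molecules, so precision covers counting and library spread only. Values per library were given by rule for INSIG1, SREBF1 and SREBF2, for the 3 called members with the largest change in each direction of each 10 µM contrast, and for those of the 48 h minus 6 h difference; in each further list up to 3 genes with the smallest p at 48 h were named, apart from some genes that are not reported here. Other members singled out were chosen after their values were seen. The members and lists were chosen with earlier results of these data known. Alternatives were another pseudocount (0.1), no filter, robust empirical Bayes, median centring, a length and GC correction, a replicate block, edgeR, 1 joint fit, each replicate left out in turn, both libraries that stood apart left out, and adjustment over the 9 compound pairs; the last 2 were chosen after seeing the data.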

Additional observations from a re-analysis of the deposited data

Results flagged for a closer look

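The effect of Helicon 4 at 10 µM differed between times in most of the 33 genes, by a limma contrast of the 2 effects with Benjamini-Hochberg adjustment over all genes. Against DMSO, 3 genes had a higher effect and 22 a lower effect at 24 h than at 6 h, against 19.0% and 19.6% of all genes. At 48 h against 6 h, 1 gene had a higher and 26 a lower effect, against 26.8% and 22.6%. Against Helicon 4-neg, 0 genes had a higher and 26 a lower effect at 48 h than at 6 h, against 20.7% and 19.9%, with the same counts in edgeR. An unadjusted limma p under 0.05 was found in 26 members there, against 6519 of all 13782 genes. The largest differences at 48 h against 6 h, on the log2 scale and against DMSO, were 0.35 for TM7SF2, -1.25 for INSIG1, -1.17 for MVK and -1.14 for SQLE.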

How the results depend on the processing

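Counts are of members called at 10 µM unless a dose slope is named, and the cause of each move was not tested. The 1 lower with Helicon 4 than with DMSO at 6 h became 0 under median centring, no filter, the replicate block, the length and GC correction and 1 fit of all 63 libraries. The 0 higher with Helicon 4-neg than with DMSO at 6 h became 1 under robust empirical Bayes and median centring. Between the compounds at 6 h, the 0 lower became 1 under the length and GC correction. The 6 higher became 11 when adjusted over the 9 pairs, an adjustment that was more lenient at 6 h. At 48 h, the 2 higher with Helicon 4 than with DMSO became 1 under robust empirical Bayes, the 0 higher with Helicon 4 than with Helicon 4-neg became 1 under the length and GC correction, in edgeR and without both libraries that stood apart, and the 9 Helicon 4-neg slopes became 14 without those libraries. For 48 h minus 6 h, the 1 higher against DMSO became 2 without them and the 0 higher against Helicon 4-neg became 1 under the length and GC correction. The 17 lower in DMSO at 48 h than at 6 h became 11 under median centring. The largest shift that median centring gave to the median of all genes was -0.12. It fell in another contrast, the 48 h minus 6 h difference of Helicon 4 at 10 µM against DMSO.

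Leaving out 1 replicate at a time gave these ranges. For Helicon 4 against DMSO, higher and lower counts ran from 14 to 17 and 0 to 2 at 6 h, 2 to 3 and 21 to 24 at 24 h, and 1 to 2 and 27 to 28 at 48 h. For Helicon 4-neg against DMSO they ran from 0 to 3 and 0 to 0 at 6 h, 14 to 16 and 0 to 0 at 24 h, and 14 to 20 and 0 to 1 at 48 h. For Helicon 4 against Helicon 4-neg they ran from 4 to 5 and 0 to 0 at 6 h, 2 to 3 and 25 to 26 at 24 h, and 0 to 0 and 27 to 28 at 48 h. Slopes ran from 4 to 8, 19 to 22 and 18 to 20 with Helicon 4 at 6, 24 and 48 h, and from 0 to 0, 14 to 18 and 3 to 11 with Helicon 4-neg. The differences between times ran from 2 to 3 higher and 21 to 22 lower for 24 h minus 6 h, 1 to 1 and 25 to 26 for 48 h minus 6 h, and 0 to 0 and 25 to 26 between the compounds, and DMSO over time from 5 to 8 and 14 to 17.

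The sign of SREBF1 turned in contrasts where it was not called. Helicon 4 against DMSO at 6 h gave 0.00964 under the length and GC correction and, leaving out 1 replicate, -0.17 to 0.0678 (0.0221 without Helicon 4 replicate 2 and 0.0678 without DMSO replicate 2). Helicon 4-neg against DMSO gave -0.21 to 0.0277 at 6 h, the highest without DMSO replicate 2, and -0.0120 to 0.126 at 24 h, the lowest without Helicon 4-neg replicate 1. Between the compounds it gave -0.0436 (without Helicon 4 replicate 3) to 0.146 at 6 h, with -0.00116 without Helicon 4-neg replicate 2, and -0.0822 to 0.0587 (without Helicon 4-neg replicate 1) at 48 h, with 0.0397 without Helicon 4 replicate 3 and 0.000993 without Helicon 4-neg replicate 3. SREBF2 with Helicon 4-neg against DMSO at 24 h, also not called, gave -0.0272 (without DMSO replicate 2) to 0.0634.

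Same-numbered libraries did not deviate together (mean correlations -0.0513, -0.0218 and -0.0471 at 6, 24 and 48 h), so the numbers were not taken as pairs. The replicate block left 31 of 32 counts within 1.5 times and lost 2 gene calls. The pseudocount of 0.1 left 32 of 32 counts within 1.5 times. Each member had at least 137 reads in every library. Whether more reads or more than 3 libraries a group would change the calls was not tested.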
